A study of Mus musculus with 8 samples.

Results

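The genes described here encode the ATPases, subunits and enzymes that move nucleosomes and that write or erase methyl groups on histone lysines. They were chosen by symbol: the rows of the deposited TPM table (TPM are read abundances scaled per gene length and to the same total in each muscle) whose names begin with *Smarca* to *Smarce*, *Chd1* to *Chd9*, *Kdm1* to *Kdm8*, *Kmt2* to *Kmt5*, or *Arid1* to *Arid4* followed by a, b or c. The rule matched 56 of 41709 rows, of which 55 were protein-coding and 52 reached 1 TPM in at least 4 of the 8 muscles and were tested. The remaining row, *Kdm6bos*, is an antisense transcript and was kept apart. The 52 genes lie on 19 chromosomes, with 3 on the X chromosome and 1 on the Y chromosome.

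The mRNA came from the tibialis anterior (TA) muscles of 4 male C57BL/6J mice, 3 months old. In each mouse, 1 TA was electroporated with a pool of siRNAs against *Uba1*, which encodes the E1 enzyme that starts ubiquitination, and the contralateral TA received non-targeting (NT) siRNAs, each at 1500 pmol in 30 μl. All 8 muscles were therefore injected and electroporated, and all were collected 7 days later. The replicate number marks the mouse, so that each group has n = 4 and each muscle has a partner in the other group. The NT siRNAs were always in the right leg and the *Uba1* siRNAs in the left leg, so leg and siRNA cannot be told apart. The treatment tag of the muscles with *Uba1* siRNAs names a different target in replicates 2 to 4 than their titles and descriptions do, and the groups follow the titles and descriptions.

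DNA in the nucleus is wound on histones, and chromatin remodelers of the SWI/SNF (BAF), ISWI and CHD families use ATP to slide or evict these nucleosomes, while ARID subunits help to target some of the complexes. Histone lysine methyltransferases (KMT) add methyl groups that mark active or silent genes, and demethylases (KDM) remove them. In skeletal muscle, the BAF complex with BAF60c, the product of *Smarcd3*, works with MyoD at muscle genes, and the removal of the Polycomb mark from histone H3 by UTX and JMJD3, the products of *Kdm6a* and *Kdm6b*, is part of myogenic gene activation.

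*Uba1* mRNA was lower in each muscle that received its siRNAs, at 18.1, 6.77, 15.8 and 23.1 TPM in replicates 1 to 4 against 60.6, 59.0, 63.6 and 59.1 TPM with NT siRNAs (log2FC −1.98, SE 0.29, limma adjusted p = 0.0527 without pairing and 0.0278 with the mouse as a block). The fibre markers of the labelled tissue were abundant throughout: the 10 fibre genes, such as *Acta1* and *Ckm*, summed to 145130 to 159367 TPM with NT siRNAs and to 114294 to 161779 TPM with *Uba1* siRNAs. The mRNA of a bulk muscle comes from fibres and other cells, and fewer cells of a type and less RNA per cell cannot be told apart. Transcripts of the mitochondrial genome took 42.1 to 45.7% of the TPM with NT siRNAs and 39.9 to 50.3% with *Uba1* siRNAs. The median log2FC over the 11530 genes tested was 0.11 rather than 0, and it was 0.0016 after median-ratio scaling, which sets the typical gene of each muscle to the same level. For that reason the log2FC of each member with an unadjusted P under 0.05 is also given relative to the median of all genes.

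Every family was expressed in the TA, but at levels that differed widely between members. TPM are counted per length, so these levels can be set side by side. The highest means over the 8 muscles were those of *Smarcd3*, which encodes the BAF60c subunit named above, at 50.4 TPM, *Kmt5a*, the enzyme that adds a single methyl group to histone H4, at 47.7 TPM, and *Chd4*, the main ATPase of the NuRD complex, at 34.6 TPM. *Smarcc2*, a scaffold of BAF complexes, followed at 22.5 TPM and *Kdm6b* at 20.05 TPM. By this mean over both groups, these 5 genes were the only members at 20 TPM or more. A total of 42 of the 52 were below 10 TPM. *Kdm6b* averaged 23.8 TPM with NT siRNAs and 16.3 TPM with *Uba1* siRNAs. By family, the median level of the tested members was 7.62 TPM for *Smarca*, 7.99 TPM for *Smarcb* to *Smarce*, 3.24 TPM for *Arid*, 4.68 TPM for *Chd*, 5.10 TPM for *Kdm* and 7.18 TPM for *Kmt*, against 7.28 TPM for all genes tested. The members not tested were *Arid3c*, listed at 0 in all 8 muscles, *Chd5*, known from the nervous system and testis, with a mean of 0.0646 TPM, and *Kdm4d*, a testis demethylase, with a mean of 0.0174 TPM. *Kdm6bos* lay between 0 and 0.247 TPM.

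**Figure D1:**
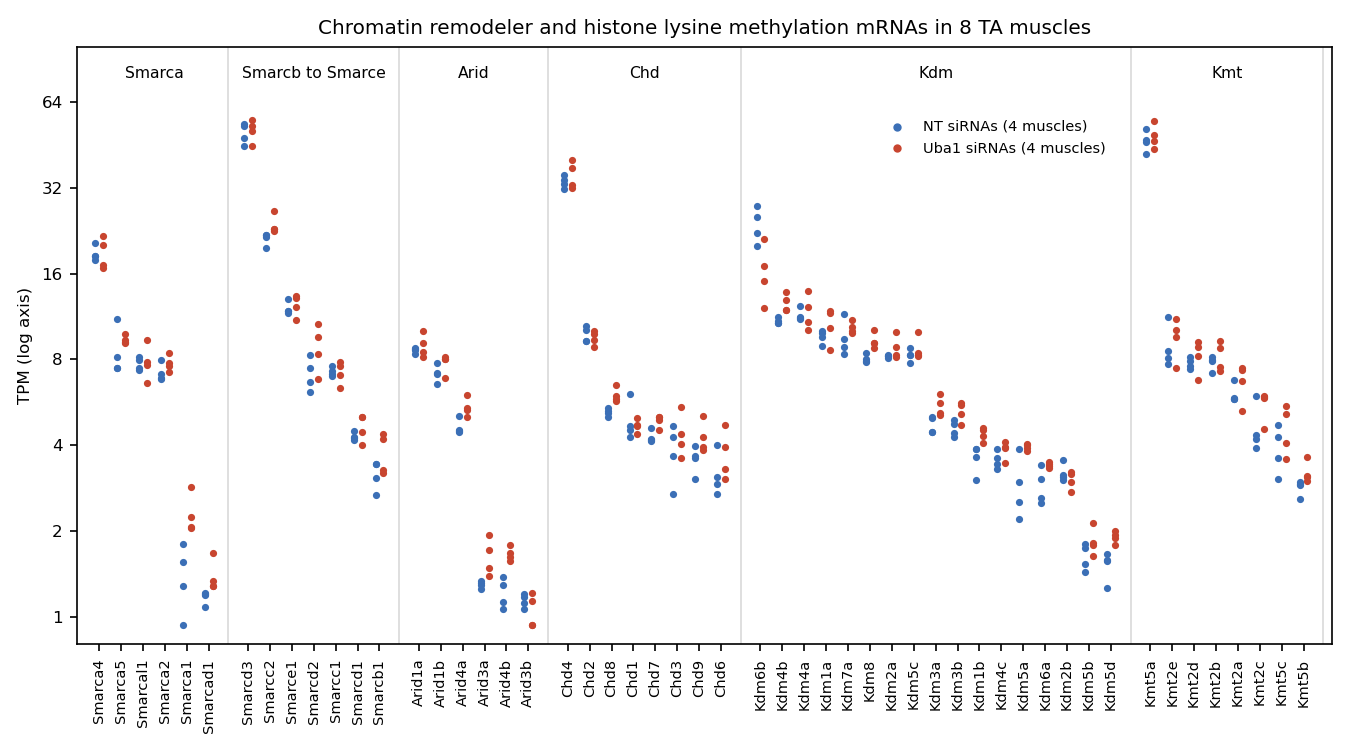
TPM (log axis) of the 52 tested members in each of the 8 TA muscles, grouped by family and ordered by mean level. Each point is 1 muscle, blue for NT siRNAs and red for Uba1 siRNAs. *Smarcd3*, *Kmt5a*, *Chd4*, *Smarcc2* and *Kdm6b* stand at the top, and the 2 groups lie close together for most members.

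Members also varied little from muscle to muscle. The median coefficient of variation of the 52 genes was 6.78% among the muscles with NT siRNAs and 9.30% among those with *Uba1* siRNAs, compared with 9.77% and 12.1% for all genes tested. The coefficient was larger with *Uba1* siRNAs for 37 of the 52. The muscle with NT siRNAs in replicate 4 held the highest value of its group for 22 members, or 42.3%, against 25.9% of all genes. In that muscle, 5 members (*Smarca5*, *Chd1*, *Chd2*, *Kdm7a* and *Kmt2e*, named after their values were seen) were at the highest level of all 8 muscles. The share of all genes for this count is not given here, so no excess is read from it. Among the muscles with *Uba1* siRNAs, replicate 3 held the highest value for 28 members, or 53.8%, against 40.4% of all genes.

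The comparison of *Uba1* with NT siRNAs addresses whether mRNAs of chromatin regulators differ once the E1 enzyme is reduced. With limma, 0 of the 52 members passed an adjusted p of 0.05, where 0.0260% of all genes tested did so, and the Kruskal-Wallis test named in the study's methods called 0 genes, since its smallest P with 4 muscles against 4 is too large to pass the adjustment here. Its unadjusted P was under 0.05 for 15 members that were higher and 1 that was lower, against 17.5% and 1.71% of all genes. With the mouse as a block, 0 members passed limma's adjusted p and 0.494% of all genes did. With median-ratio scaling, and with the scaling and the block, 0 members passed it as well, against 0.199% and 0.659% of all genes. At an unadjusted P under 0.05, 11 members (21.2%) were higher with *Uba1* siRNAs, against 16.0% of all genes: *Smarca1*, *Arid4a*, *Arid4b*, *Chd7*, *Chd8*, *Kdm1b*, *Kdm3a*, *Kdm4b*, *Kdm5a*, *Kdm5d* and *Kdm8*. Only 1 member, *Kdm6b*, was lower (1.92% of members, against 1.98% of all genes). After median-ratio scaling, the counts at the same threshold were 2 higher (*Arid4b* and *Smarca1*) and 2 lower (*Kdm2b* and *Kdm6b*), against 4.43% and 6.18% of all genes. With the mouse as a block they were 14 and 1, against 22.4% and 2.80% of all genes, and with both the block and the scaling they were 3 and 3, against 6.96% and 8.76%. The count of 11 was 7 (13.5%, against 12.4% of all genes) without the muscle with NT siRNAs of replicate 1 and 5 (9.62%, against 10.0%) without that of replicate 2. It was 6 (11.5%, against 10.5%) without the muscle with *Uba1* siRNAs of replicate 3 and 14 (26.9%, against 15.9%) without that with NT siRNAs of replicate 4. Among genes with a mean of 5 TPM or more, it was 5 of the 30 members tested (16.7%, against 15.8% of all genes). With quantile normalization, which gives every muscle the same distribution of values, 1 member was higher (1.92%, against 4.45% of all genes) and 2 were lower (3.85%, against 5.16%). An unadjusted P under 0.05 was kept in each of the 8 fits that left out 1 muscle by 5 members (9.62%), against 8.33% of all genes: *Kdm6b*, *Smarca1*, *Kdm5a*, *Arid4b* and *Kdm4b*. *Kdm6b* and *Smarca1* also did so in the 7 limma fits with another pseudocount, no filter, other scalings or the mouse as a block (3.85% of members, against 4.33% of all genes). Across the 8 fits that left out 1 muscle, the log2FC of 32 of the 52 members moved by over 1.5 times or turned sign. For 8 of these 32 it turned sign. None of the 32 was among the 12 with an unadjusted P under 0.05. A small P goes with a log2FC large beside its spread, so this lends the 12 no added weight. The share of all genes with such moves is not given here.

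The members' log2FC had a positive sign for 46 of 52 (88.5%), as it had for 81.8% of all genes, and for 30 of 52 (57.7%) after median-ratio scaling, as for 50.7% of all genes. Their median log2FC was 0.12, which is 0.013 above the median of all genes. This small difference turned sign in some fits. It was −0.0061 among genes with a mean of 5 TPM or more and −0.0022 without the muscle with *Uba1* siRNAs of replicate 4. By family, the median log2FC was 0.12 for *Smarca*, 0.084 for *Smarcb* to *Smarce*, 0.15 for *Arid*, 0.16 for *Chd*, 0.12 for *Kdm* and 0.10 for *Kmt*. A total of 20 members (38.5%) were higher in 4 of 4 mice, against 32.2% of all genes. The values of the 2 groups did not overlap for 12 members that were higher with *Uba1* siRNAs, or 23.1%, against 10.6% of all genes, and for 0 members that were lower, against 1.01% of all genes. After median-ratio scaling the groups did not overlap for 2 higher members, *Smarca1* and *Arid3a* (3.85% of members, against 2.71% of all genes), and for 2 lower members, *Arid3b* and *Smarcc1* (against 4.14% of all genes). No member had an unadjusted P under 0.05 together with a log2FC above 0.58 or below −0.58, whereas 0.442% and 0.833% of all genes did.

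**Figure D2:**
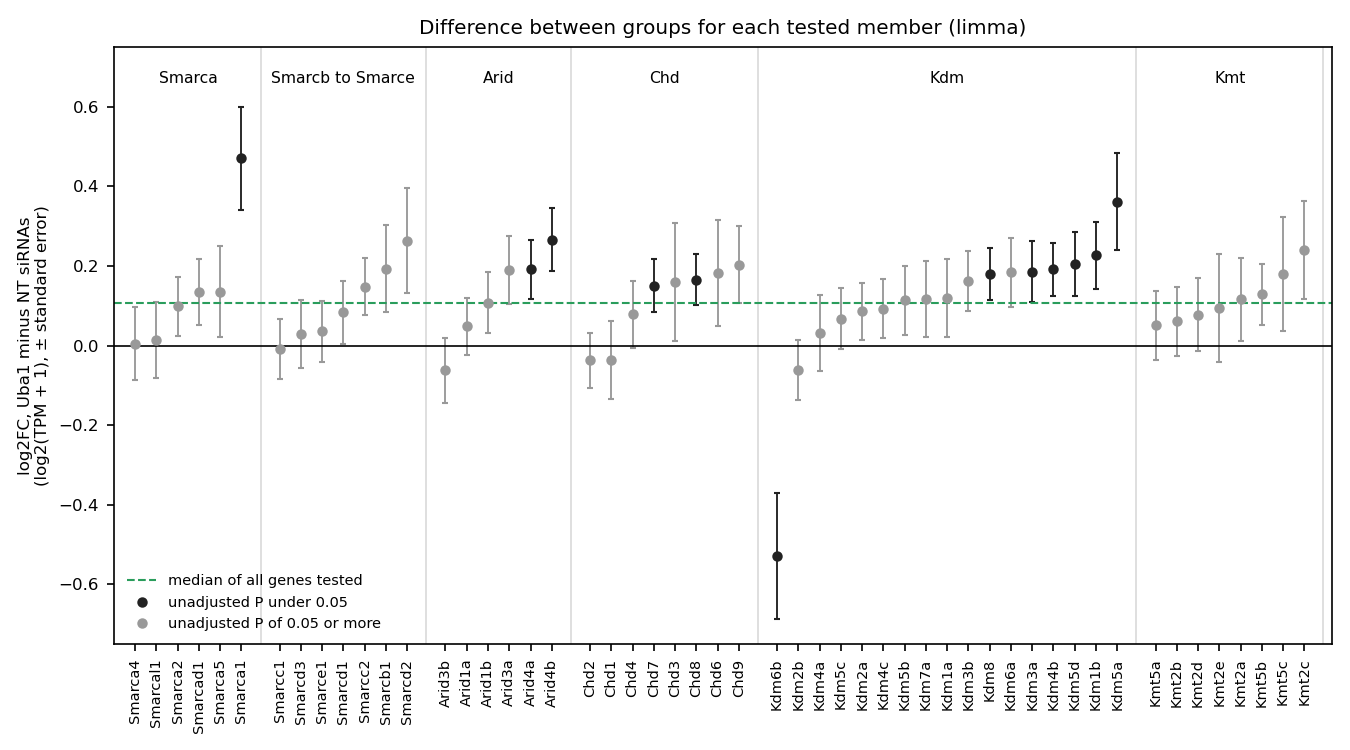
The log2FC between Uba1 and NT siRNAs, on the log2(TPM + 1) scale, for the 52 tested members by family (points, with bars for the standard error from limma). Black points have an unadjusted P under 0.05, and the dashed green line is the median of all genes tested (0.11). *Kdm6b* is the only member far below 0, at −0.53, and *Smarca1* and *Kdm5a* are the highest, at 0.47 and 0.36.

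Some regulators with a low or moderate level were separated between the groups, and the bases ahead of their start sites are shown to give the DNA context of these genes. The RefSeq set used here holds a promoter window for 38 of the 52 tested members. Of the members with a window and an unadjusted P under 0.05, the 4 with the smallest P are printed. The groups did not overlap for these 4. *Kdm6b*, *Kdm5a* and *Kdm4b* had a smaller P than *Kdm8* and *Kdm1b* but no window in the set. Each line gives the 250 bases before the RefSeq start (build GRCm38.p6), written 5′ to 3′ on the gene's strand. Each window matched GRCm39, the build of the alignment, exactly and at 1 place: *Smarca1* at chrX:46981491-46981740 on the minus strand, *Arid4b* at chr13:14238119-14238368, *Kdm8* at chr7:125043542-125043791 and *Kdm1b* at chr13:47196725-47196974, these 3 on the plus strand. In the GENCODE annotation, the outermost starts of *Smarca1*, *Arid4b* and *Kdm1b* lie further upstream, so that their windows fall inside the annotated genes, while the window of *Kdm8* lies just ahead of its gene. Capitals mark every match to CCAAT or to GGGCGG on either strand.
*Smarca1*: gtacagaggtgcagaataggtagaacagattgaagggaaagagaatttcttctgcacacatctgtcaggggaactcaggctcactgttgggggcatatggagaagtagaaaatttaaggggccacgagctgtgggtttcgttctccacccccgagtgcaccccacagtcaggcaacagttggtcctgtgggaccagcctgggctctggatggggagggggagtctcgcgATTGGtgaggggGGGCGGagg
*Arid4b*: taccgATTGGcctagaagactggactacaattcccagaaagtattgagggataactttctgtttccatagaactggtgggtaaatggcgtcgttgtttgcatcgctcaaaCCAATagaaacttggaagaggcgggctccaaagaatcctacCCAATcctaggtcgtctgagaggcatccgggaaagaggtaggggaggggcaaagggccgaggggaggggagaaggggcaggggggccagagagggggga
*Kdm8*: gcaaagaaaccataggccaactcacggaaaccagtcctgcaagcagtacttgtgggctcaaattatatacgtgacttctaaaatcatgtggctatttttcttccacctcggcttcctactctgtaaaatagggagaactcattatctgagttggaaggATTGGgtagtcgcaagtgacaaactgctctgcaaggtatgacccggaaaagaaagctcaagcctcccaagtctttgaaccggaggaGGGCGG
*Kdm1b*: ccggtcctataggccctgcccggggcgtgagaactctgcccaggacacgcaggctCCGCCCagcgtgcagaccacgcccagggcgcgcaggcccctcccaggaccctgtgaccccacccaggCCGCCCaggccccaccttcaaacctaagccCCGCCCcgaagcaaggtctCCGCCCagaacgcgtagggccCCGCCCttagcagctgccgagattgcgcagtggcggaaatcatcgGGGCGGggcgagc
*Smarca1* carried 1 CCAAT match and 1 GGGCGG match, both within its last 21 bases, and *Kdm8* carried 1 match of each. *Arid4b* had 3 CCAAT matches and no match to GGGCGG, and *Kdm1b* had 6 matches to GGGCGG and none to CCAAT. Over windows of 300 bases (250 before and 50 after the start), GGGCGG was present in 76.32% of the 38 members' promoters, in 65.27% of the 9046 promoters of tested genes and in 35.91% of all 27025. CCAAT was present in 36.84%, 38.64% and 37.92% of the same sets. The palindrome CACGTG was found in 2.63%, 10.7% and 7.24%, TGANTCA in 10.53%, 4.73% and 7.93%, CGGAAG in 31.58%, 32.37% and 17.17%, and TATAAA in 5.26%, 7.42% and 14.16%, while TGACGTCA was found in 0 of the 38, in 3.29% of the promoters of tested genes and in 1.88% of all. The median GC content was 61.17% for the members, 61.0% for tested genes and 52.67% for all. Both strands were searched, and matches of different motifs that share bases were counted for each. A match to these letters is a description of the sequence only.

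Among the *Smarca* ATPases, *Smarca1* gave the clearest difference. It encodes SNF2L, which with its paralog SNF2H (*Smarca5*) forms the motor of ISWI complexes that space nucleosomes. *Smarca1* (ENSMUSG00000031099, chrX:46898245-46981880, minus strand) was at 0.933, 1.28, 1.80 and 1.55 TPM with NT siRNAs and at 2.85, 2.04, 2.07 and 2.24 TPM with *Uba1* siRNAs in replicates 1 to 4. The 4 values with *Uba1* siRNAs were all above the 4 with NT siRNAs, and the difference was largest in replicate 1. The means were 1.39 ± 0.374 and 2.30 ± 0.377 TPM (SD, n = 4), with a log2FC of 0.47 (SE 0.13, 0.36 above the median of all genes), an exact permutation p of 0.0286, the smallest that 4 against 4 can give, and a limma adjusted p of 0.165. The adjusted p was 0.122 with the mouse as a block. At this low level the added 1 TPM shrinks the log2FC, which was 0.71 with a pseudocount of 0.1.

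*Smarca5* itself was at 7.43, 7.45, 8.18 and 11.1 TPM with NT siRNAs and at 9.79, 9.22, 9.10 and 9.35 TPM with *Uba1* siRNAs. Its level with NT siRNAs in replicate 4 was the highest of all 8 muscles, and the groups overlapped (log2FC 0.13, SE 0.11, limma adjusted p = 0.523). Without that muscle the log2FC was 0.26 (limma adjusted p = 0.138), and without replicate 1 or 2 of the NT group it was 0.081 or 0.082. *Smarca4*, which encodes the BAF motor BRG1, was the most abundant ATPase of this family, at 18.4, 18.4, 20.5 and 17.9 TPM with NT siRNAs and 20.1, 17.2, 21.7 and 16.7 TPM with *Uba1* siRNAs. Its means of 18.8 ± 1.15 and 18.9 ± 2.36 TPM hardly differed (log2FC 0.0049, SE 0.092, limma adjusted p = 0.980), and the sign turned to −0.11 after median-ratio scaling. *Smarca2*, the alternative BAF motor BRM, and *Smarcal1*, an annealing helicase at stalled replication forks, were between 6.60 and 9.37 TPM in all muscles, with groups that overlapped. *Smarcad1*, a remodeler of silent chromatin, was higher in all 4 muscles with *Uba1* siRNAs than in any with NT siRNAs, at 1.39 ± 0.187 against 1.17 ± 0.0613 TPM, but its log2FC of 0.13 (SE 0.082) had a limma adjusted p of 0.388 and was 0.080 without the muscle with *Uba1* siRNAs of replicate 1.

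The core BAF subunits encoded by *Smarcb1* to *Smarce1* gave 0 of 7 members with an unadjusted P under 0.05, where 16.0% of all genes were higher and 1.98% lower at it. With the mouse as a block, *Smarcb1* and *Smarcd2* were higher at this P (limma adjusted p = 0.160 and 0.139), as were 22.4% of all genes. *Smarcd3* was at 53.0, 47.8, 45.0 and 53.8 TPM with NT siRNAs and at 55.6, 44.9, 52.6 and 50.8 TPM with *Uba1* siRNAs, so that its groups overlapped almost completely (log2FC 0.029, SE 0.086, limma adjusted p = 0.860). After median-ratio scaling its sign turned, to −0.090. *Smarcc2*, which encodes BAF170, was at 21.6, 21.9, 21.8 and 19.7 TPM with NT siRNAs and at 22.5, 22.9, 26.5 and 22.9 TPM with *Uba1* siRNAs. These groups did not overlap, and the log2FC was 0.15 (SE 0.072, limma adjusted p = 0.310), or 0.042 above the median of all genes. It was 0.095 without the muscle with *Uba1* siRNAs of replicate 3. *Smarcd2*, the alternative BAF60b subunit known from blood cell development, was at 7.47, 6.66, 8.29 and 6.16 TPM with NT siRNAs and at 10.6, 6.81, 9.59 and 8.32 TPM with *Uba1* siRNAs, and it was higher in 4 of 4 mice although the groups overlapped (log2FC 0.26, SE 0.13, limma adjusted p = 0.318). The other 4 subunits, *Smarcb1*, *Smarcc1*, *Smarcd1* and *Smarce1*, had log2FC of 0.19, −0.0091, 0.084 and 0.036. Of the 52 members, 34 share exonic bases with another annotated gene. In this family, *Smarcd3* shares 2466 of its 5677 exonic bases with *Chpf2* on the opposite strand, and *Mir671* overlaps it as well. *Smarcd2* shares up to 1269 of 4446 (with *Psmc5* among its partners) and *Smarcc2* up to 89 of 7571 (with *Myl6* among its partners). The libraries did not keep strand, so reads of such partners cannot be told apart.

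The *Arid* genes fell into those above 4 TPM and those below 2 TPM. *Arid1a* and *Arid1b*, the alternative ARID subunits of the canonical BAF complex, were the highest. *Arid1a* was at 8.72, 8.35, 8.76 and 8.62 TPM with NT siRNAs and at 8.18, 8.49, 10.03 and 9.15 TPM with *Uba1* siRNAs, with overlapping groups (log2FC 0.048, SE 0.072, limma adjusted p = 0.719) and a sign that turned after median-ratio scaling (−0.061). *Arid4a* and *Arid4b* encode related subunits of the Sin3 histone deacetylase corepressor, and both had an unadjusted P under 0.05. *Arid4b* (ENSMUSG00000039219, chr13:14237817-14374188, plus strand) was at 1.13, 1.06, 1.29 and 1.38 TPM with NT siRNAs and at 1.78, 1.67, 1.57 and 1.62 TPM with *Uba1* siRNAs. The groups did not overlap, and the log2FC was 0.27 (SE 0.079, 0.16 above the median of all genes, limma adjusted p = 0.174), or 0.43 with a pseudocount of 0.1. *Arid4a* was at 4.51, 4.49, 4.45 and 5.06 TPM with NT siRNAs and at 5.42, 5.30, 5.99 and 5.004 TPM with *Uba1* siRNAs, higher in 3 of 4 mice. It had a log2FC of 0.19 (SE 0.074, 0.086 above the median of all genes, limma adjusted p = 0.232). Of the *Arid3* genes, which encode factors that bind AT-rich DNA, *Arid3a* did not overlap between groups, at 1.30 ± 0.0349 and 1.63 ± 0.240 TPM (limma adjusted p = 0.284), and *Arid3b* was at 1.14 ± 0.0598 and 1.05 ± 0.143 TPM (limma adjusted p = 0.682).

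The CHD remodelers carry a pair of chromodomains, which in some of these proteins read methylated histones. *Chd4* was at 31.7, 33.1, 35.5 and 34.1 TPM with NT siRNAs and at 37.7, 32.0, 40.1 and 32.8 TPM with *Uba1* siRNAs, with groups that overlapped (log2FC 0.078, SE 0.084, limma adjusted p = 0.616) and a log2FC of −0.041 after median-ratio scaling. Without the muscle with *Uba1* siRNAs of replicate 3 the log2FC was 0.021, and without that of replicate 2 it was 0.13. *Chd7* and *Chd8*, known from CHARGE syndrome and from autism in humans, had an unadjusted P under 0.05. *Chd8* was at 5.29, 5.04, 5.38 and 5.20 TPM with NT siRNAs and at 5.80, 5.72, 6.49 and 5.96 TPM with *Uba1* siRNAs. Its groups did not overlap, while its log2FC of 0.17 (SE 0.064, limma adjusted p = 0.236) was only 0.060 above the median of all genes. *Chd7* was at 4.22, 4.13, 4.18 and 4.60 TPM with NT siRNAs and at 4.50, 5.01, 5.02 and 4.92 TPM with *Uba1* siRNAs. It had a log2FC of 0.15 (SE 0.067, 0.045 above the median of all genes, limma adjusted p = 0.278). *Chd9* had the largest log2FC of the family, 0.20 (SE 0.097, limma adjusted p = 0.303), from 3.66, 3.05, 3.98 and 3.60 TPM with NT siRNAs and 5.06, 3.93, 4.26 and 3.84 TPM with *Uba1* siRNAs, and it was higher in 4 of 4 mice. Its log2FC was 0.13 without the muscle with *Uba1* siRNAs of replicate 1. With the mouse as a block, the unadjusted P was under 0.05 for *Chd9* and above it for *Chd7* (limma adjusted p = 0.178 and 0.216). *Chd1*, *Chd2*, *Chd3* and *Chd6* had log2FC of −0.037, −0.038, 0.16 and 0.18, each with overlapping groups. With 1 muscle left out, these ranged from −0.087 to 0.056 for *Chd1*, from −0.062 to −0.0064 for *Chd2*, from 0.038 to 0.24 for *Chd3* and from 0.089 to 0.27 for *Chd6*. The lowest values were those without the muscle with NT siRNAs of replicate 1 for *Chd1* and of replicate 4 for *Chd3*, and without that with *Uba1* siRNAs of replicate 2 for *Chd2* and of replicate 4 for *Chd6*. The highest were those without the muscle with NT siRNAs of replicate 4 for *Chd1* and *Chd6* and of replicate 1 for *Chd3*, and without that with *Uba1* siRNAs of replicate 1 for *Chd2*.

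*Kdm6b*, the eraser of the Polycomb mark called JMJD3 and known for its induction by inflammatory signals in macrophages, was the most abundant of the *Kdm* mRNAs and had the lowest log2FC of the 52 members. *Kdm6b* (ENSMUSG00000018476, chr11:69289334-69304501, minus strand) was at 22.2, 27.6, 19.9 and 25.3 TPM with NT siRNAs and at 12.1, 17.1, 15.1 and 21.1 TPM with *Uba1* siRNAs in replicates 1 to 4. It was lower with *Uba1* siRNAs in 4 of 4 mice and was the only member of which this was so (1.92% of members, against 2.98% of all genes). The groups still overlapped, because replicate 4 with *Uba1* siRNAs lay above replicate 3 with NT siRNAs. The means were 23.8 ± 3.35 and 16.3 ± 3.77 TPM (SD, n = 4), with a log2FC of −0.53 (SE 0.16, 0.63 below the median of all genes), a limma adjusted p of 0.174, and an exact permutation p of 0.0571. Within the 4 mice the differences on the log2(TPM + 1) scale were −0.83, −0.66, −0.38 and −0.25. With the mouse as a block, the limma adjusted p was 0.0732, and over 16 alternative fits the log2FC ranged from −0.65 to −0.40. *Kdm6bos* overlaps its exons on the opposite strand and was at 0.247 TPM or less, and without strand the reads of the overlap cannot be told apart.

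*Kdm6a*, the X-linked enzyme UTX that acts on the same mark, was at 2.60, 2.50, 3.05 and 3.40 TPM with NT siRNAs and at 3.44, 3.36, 3.48 and 3.32 TPM with *Uba1* siRNAs. The 4 values with *Uba1* siRNAs lay close together, next to the highest NT value of replicate 4 (log2FC 0.18, SE 0.087, limma adjusted p = 0.298). Both genes therefore had log2FC of opposite sign, and their ratio is given with the other paralogs.

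The *Kdm5* genes encode erasers of the methyl mark of active promoters, and *Kdm5a* had the second largest positive log2FC of all members. *Kdm5a* (ENSMUSG00000030180, chr6:120341068-120421535, plus strand) was at 2.52, 2.20, 2.96 and 3.87 TPM with NT siRNAs and at 4.03, 3.91, 3.99 and 3.82 TPM with *Uba1* siRNAs. Replicates 1 to 3 with NT siRNAs were below all muscles with *Uba1* siRNAs, and replicate 4 was level with them (log2FC 0.36, SE 0.12, 0.26 above the median of all genes, limma adjusted p = 0.196). The Y-linked *Kdm5d* was at 1.57, 1.26, 1.58 and 1.66 TPM with NT siRNAs and at 1.93, 1.78, 1.99 and 1.88 TPM with *Uba1* siRNAs, without overlap. It had a log2FC of 0.21 (SE 0.080, 0.099 above the median of all genes, limma adjusted p = 0.236). Its X-linked paralog *Kdm5c* had a log2FC of 0.067 (SE 0.077, limma adjusted p = 0.638). How reads that match both paralogs were counted is not given in the sources used here, so the split between *Kdm5c* and *Kdm5d* is uncertain. *Kdm5b* was at 1.63 ± 0.170 and 1.84 ± 0.212 TPM.

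The *Kdm1*, *Kdm3*, *Kdm4* and *Kdm8* genes each held a member with an unadjusted P under 0.05, all of them higher with *Uba1* siRNAs in 4 of 4 mice and without overlap of the groups. *Kdm1b*, the flavin-dependent demethylase LSD2, was at 3.89, 3.02, 3.62 and 3.86 TPM with NT siRNAs and at 4.51, 4.61, 4.29 and 4.06 TPM with *Uba1* siRNAs (log2FC 0.23, SE 0.083, limma adjusted p = 0.218). *Kdm4b*, an eraser of the heterochromatin mark, was at 10.7, 10.8, 10.9 and 11.3 TPM with NT siRNAs and at 11.9, 11.9, 13.8 and 12.9 TPM with *Uba1* siRNAs (log2FC 0.19, SE 0.067, limma adjusted p = 0.208). The differences were small beside the level, but the NT values had an SD of 2.39% of their mean. *Kdm8*, the JmjC protein JMJD5, was at 8.44, 7.84, 7.92 and 8.02 TPM with NT siRNAs and at 10.1, 9.10, 8.73 and 9.12 TPM with *Uba1* siRNAs (log2FC 0.18, SE 0.066, limma adjusted p = 0.214). *Kdm3a* acts on the same histone lysine as *Kdm4b* and is known from spermatogenesis and metabolism. It was at 4.43, 5.01, 4.96 and 4.43 TPM with NT siRNAs and at 5.17, 5.63, 6.06 and 5.12 TPM with *Uba1* siRNAs (log2FC 0.19, SE 0.076, limma adjusted p = 0.251). Relative to the median of all genes, these 4 log2FC were 0.12, 0.086, 0.075 and 0.079, in the order given. *Kdm1b* shares exonic bases with *Dek* and *Tpmt* on the opposite strand. The remaining demethylases, *Kdm1a*, *Kdm2a*, *Kdm2b*, *Kdm3b*, *Kdm4a*, *Kdm4c* and *Kdm7a*, had log2FC between −0.062 (*Kdm2b*) and 0.16 (*Kdm3b*), and their groups overlapped.

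**Figure D3:**
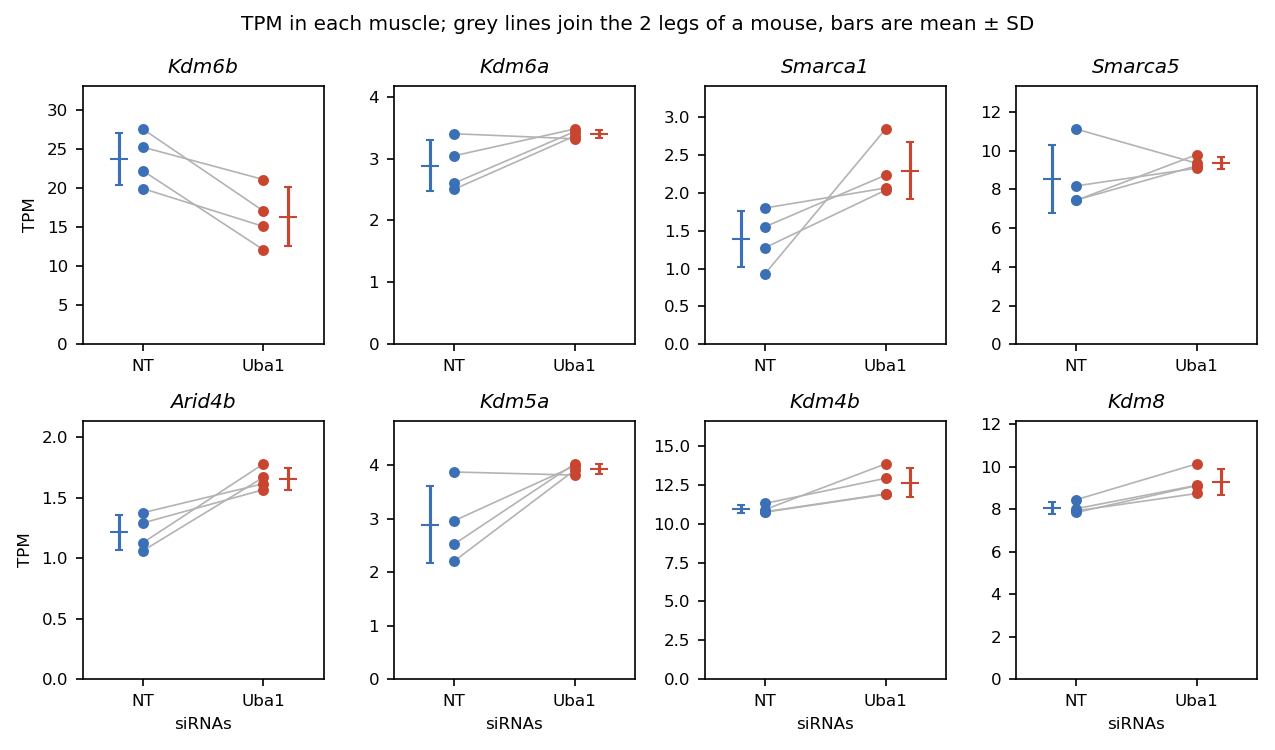
TPM of 8 members in each muscle (y axes start at 0 and differ between panels). Grey lines join the 2 legs of a mouse, and the bars at the sides are the mean ± SD of each group (n = 4). All 4 lines of *Kdm6b* go down from NT to Uba1 siRNAs, while those of *Smarca1*, *Arid4b*, *Kdm4b* and *Kdm8* go up.

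Of the methyltransferases, 0 of 8 had an unadjusted P under 0.05, where 16.0% of all genes were higher and 1.98% lower at it, though *Kmt2c* did with the mouse as a block (limma adjusted p = 0.186), as did 22.4% of all genes in the higher direction. All 8 had a positive log2FC between 0.051 and 0.24, as 81.8% of all genes did, and 4 of the 8 had one after median-ratio scaling. *Kmt5a* was at 42.2, 47.2, 51.5 and 46.3 TPM with NT siRNAs and at 48.9, 46.6, 54.9 and 43.9 TPM with *Uba1* siRNAs, with overlap (log2FC 0.051, SE 0.087, limma adjusted p = 0.751), and its log2FC was −0.068 after median-ratio scaling. *Kmt2c*, an MLL-family enzyme that marks enhancers, was at 4.19, 3.91, 4.32 and 5.93 TPM with NT siRNAs and at 4.55, 5.97, 5.85 and 5.91 TPM with *Uba1* siRNAs. In each group 1 muscle lay apart from the other 3, high in replicate 4 with NT siRNAs and low in replicate 1 with *Uba1* siRNAs (log2FC 0.24, SE 0.12, limma adjusted p = 0.325). *Kmt2a*, *Kmt2b* and *Kmt2d*, the other MLL-family writers at promoters and enhancers, had means of 6.06 to 7.78 TPM with NT siRNAs and of 6.69 to 8.25 TPM with *Uba1* siRNAs. *Kmt5b* was the only *Kmt* gene whose groups did not overlap, at 2.85 ± 0.174 and 3.21 ± 0.284 TPM (log2FC 0.13, limma adjusted p = 0.376), and its log2FC was 0.082 without the muscle with *Uba1* siRNAs of replicate 3.

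A ratio of a pair of paralogs within the same muscle does not depend on how that muscle was scaled, and 12 such ratios were compared. The ratio of *Kdm6a* to *Kdm6b* was 0.117, 0.0908, 0.153 and 0.135 in replicates 1 to 4 with NT siRNAs and 0.284, 0.197, 0.230 and 0.157 with *Uba1* siRNAs. It was 1.75-fold higher with *Uba1* siRNAs, in 4 of 4 mice and without overlap (log2 difference 0.80, two-sided exact permutation p = 0.0286, 0.171 adjusted over the 12 ratios). The ratio of *Smarca1* to *Smarca5* was 0.125, 0.171, 0.220 and 0.140 with NT siRNAs and 0.291, 0.221, 0.227 and 0.239 with *Uba1* siRNAs. It was 1.52-fold higher, also in 4 of 4 mice and without overlap, though the highest NT value was next to the lowest value with *Uba1* siRNAs (log2 difference 0.60, exact permutation p = 0.0286, 0.171 adjusted over the 12 ratios). When 1 TPM was added to both genes, the log2 difference of the *Smarca1* ratio was 0.34 and its exact permutation p was 0.0857. The exact sign-flip test within mice gave 0.125 for both, which is the smallest p that 4 mice allow, and 0 of the 12 ratios passed the adjustment.

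The other 10 ratios overlapped between the groups. *Kdm5c* to *Kdm5d* had a geometric mean of 5.47 with NT siRNAs and 4.59 with *Uba1* siRNAs (exact permutation p = 0.0857) and was lower in 4 of 4 mice. *Kdm4a* to *Kdm4b*, at 1.05 and 0.926 (exact permutation p = 0.143), was also lower in 4 of 4 mice. *Smarca2* to *Smarca4*, the alternative BAF motors, was at 0.381 and 0.411 (exact permutation p = 0.486), higher in 4 of 4 mice. With 1 muscle left out, its log2 difference between groups ranged from 0.0078 to 0.18. That of *Kdm5c* to *Kdm5d* ranged from −0.30 to −0.17 and that of *Kdm4a* to *Kdm4b* from −0.22 to −0.093. For *Chd1* to *Chd2* it ranged from −0.049 to 0.076, and for *Arid1a* to *Arid1b* from −0.11 to −0.024. The ratios of *Chd1* to *Chd2* and of *Arid1a* to *Arid1b* had similar means, with geometric means of 0.494 and 0.493 for *Chd1* to *Chd2* and of 1.21 and 1.15 for *Arid1a* to *Arid1b* (exact permutation p = 1.0 and 0.457).

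**Figure D4:**
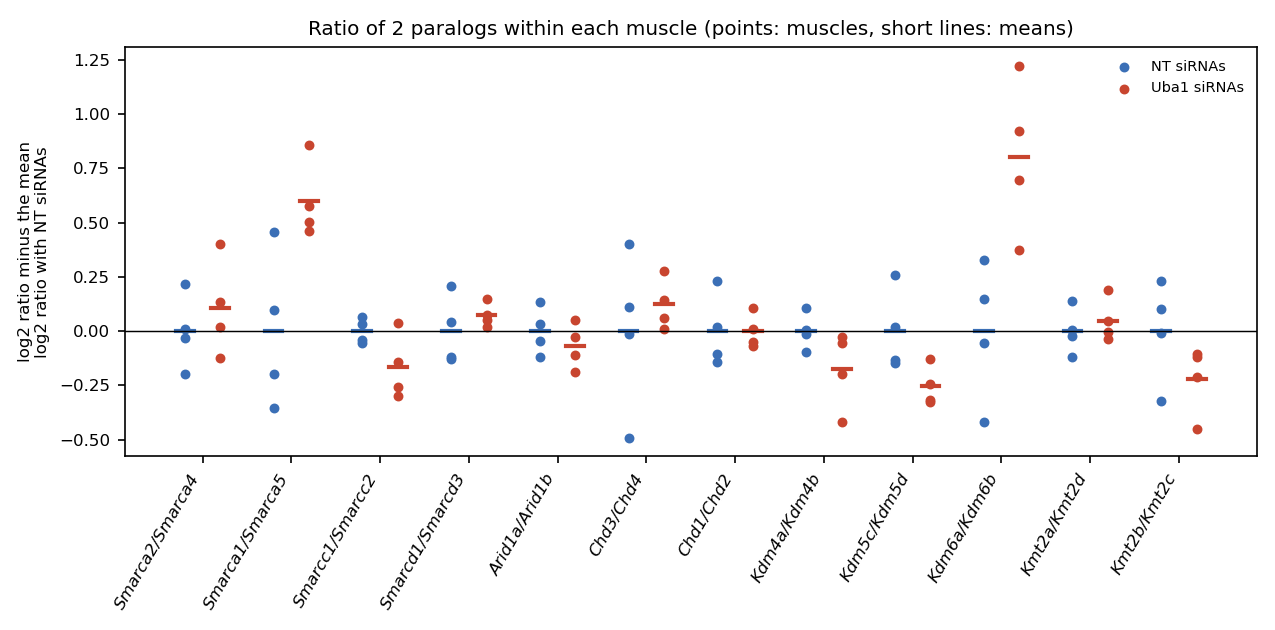
Log2 ratio of each of 12 pairs of paralogs in each muscle, minus the mean of the NT group (points are muscles, short lines are group means). *Kdm6a*/*Kdm6b* and *Smarca1*/*Smarca5* are the only pairs whose 4 red points all lie above the 4 blue points, by 0.80 and 0.60 on average.

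The share of members that was higher with *Uba1* siRNAs varied between the 4 mice, as did that of all genes. In replicates 1 to 4, the share of the 52 members that was higher in the leg with *Uba1* siRNAs was 80.8%, 67.3%, 96.2% and 59.6%, and that of all genes was 83.3%, 56.1%, 81.8% and 61.8%. Replicates 1 and 3 thus had the larger shares in both. In these mice the mitochondrial share was lower with *Uba1* siRNAs, at 40.2% and 39.9% against 45.7% and 42.1% with NT siRNAs, whereas in replicates 2 and 4 it was higher, at 50.3% and 46.5% against 43.9% and 43.2%. When TPM were rescaled without mitochondrial transcripts, 15 members (28.8%) were higher at an unadjusted P under 0.05, against 22.0% of all genes. After median-ratio scaling, the shares of members that were higher were 30.8%, 55.8%, 69.2% and 57.7%, where those of all genes were 49.4 to 50.9%. The median of the members minus that of all genes was −0.060, 0.031, 0.030 and 0.012 on the log2 scale in the 4 mice, and its sign was therefore not the same in each.

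**Figure D5:**
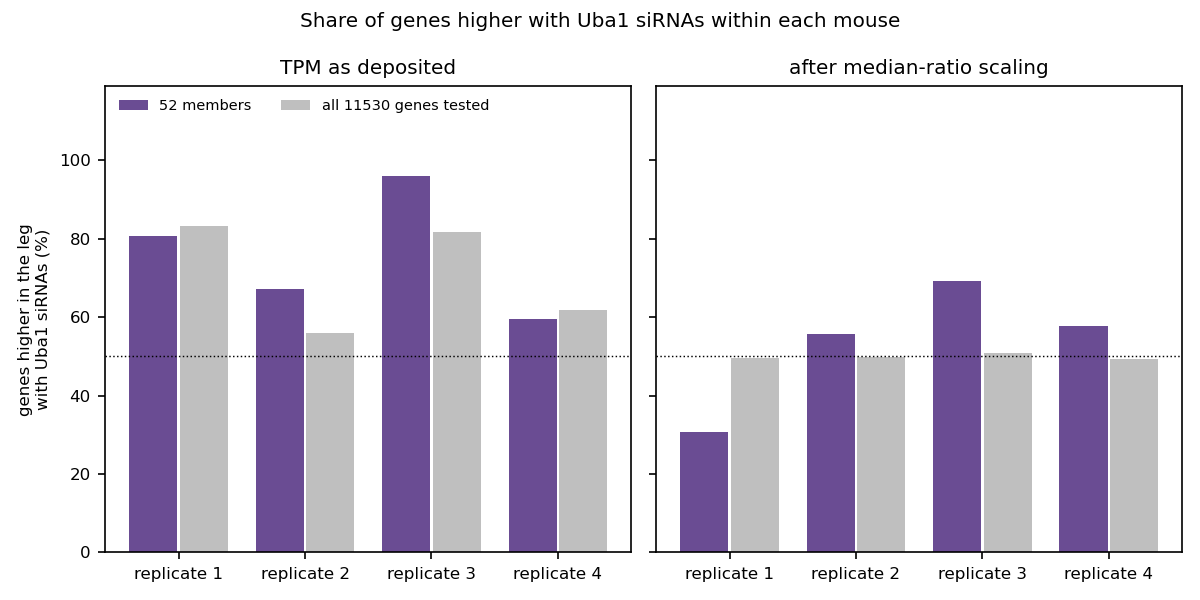
Share of genes (%) that were higher in the leg with Uba1 siRNAs in each of the 4 mice, for the 52 members (purple) and all 11530 genes tested (grey), with the deposited TPM (left) and after median-ratio scaling (right). The dotted line is at 50%. Members lie between 59.6 and 96.2% on the left, where all genes lie between 56.1 and 83.3%, and between 30.8 and 69.2% on the right.

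The partners of these enzymes outside the naming rule were examined through a list of 74 genes, of which 70 were tested. At an unadjusted P under 0.05, 8 of the 70 (11.4%) were higher, against 16.0% of all genes, and 2 (2.86%) were lower, against 1.98%. After median-ratio scaling, 2 were higher (*Atrx* and *Ehmt2*) and 3 lower (*Arid5a*, *Arid5b* and *Dot1l*), against 4.43% and 6.18% of all genes. The median log2FC of the list was 0.086, which is 0.019 below that of all genes. *Arid5a*, which encodes an ARID protein that also binds and stabilizes inflammatory mRNAs, was at 2.95, 4.24, 3.85 and 4.67 TPM with NT siRNAs and at 1.23, 1.94, 1.91 and 2.68 TPM with *Uba1* siRNAs. It was lower in 4 of 4 mice without overlap (log2FC −0.76, SE 0.16, limma adjusted p = 0.129), and with the mouse as a block it fell, at a limma adjusted p of 0.0133. *Arid5b* was at 4.99, 6.25, 7.04 and 7.36 TPM with NT siRNAs and at 4.65, 4.23, 5.89 and 4.09 TPM with *Uba1* siRNAs (log2FC −0.37, SE 0.13, limma adjusted p = 0.208).

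The 8 list genes that were higher with the deposited TPM were of several kinds. *Ehmt2* encodes the writer G9a, which methylates the histone lysine that *Kdm3a* and *Kdm4b* proteins demethylate. It had means of 14.95 ± 0.415 TPM with NT siRNAs and 18.4 ± 1.31 TPM with *Uba1* siRNAs (SD, n = 4), without overlap (log2FC 0.28, SE 0.066, limma adjusted p = 0.143). *Smyd2*, a methyltransferase abundant in muscle, was at 133, 136, 114 and 143 TPM with NT siRNAs and at 182, 175, 161 and 149 TPM with *Uba1* siRNAs, also without overlap (log2FC 0.34, SE 0.091, limma adjusted p = 0.159). The others were *Atrx*, a remodeler of silent chromatin (log2FC 0.34), the NuRD subunits *Mta1* and *Mta2* (0.17 and 0.18), *Baz1b*, a partner of the *Smarca5* product (0.21), the Polycomb subunit *Suz12* (0.22) and *Arid2*, a subunit of the PBAF complex (0.26). None of these 8 passed a limma adjusted p of 0.05, with or without the mouse as a block.

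Marker genes of other cells in the muscle were compared as summed TPM. The 7 leukocyte genes summed to 17.5 to 41.9 TPM with NT siRNAs and 14.2 to 45.4 TPM with *Uba1* siRNAs (exact permutation p = 0.857). The 5 genes of fibro-adipogenic cells summed to 444 to 924 TPM and 552 to 1141 TPM and were higher in 4 of 4 mice (exact permutation p = 0.343). The 4 satellite cell genes summed to 22.6 to 33.1 TPM and 27.8 to 45.3 TPM (exact permutation p = 0.229), and the 5 endothelial genes to 102 to 142 TPM and 115 to 139 TPM (exact permutation p = 0.686). Sums of smooth muscle, Schwann cell, adipocyte and proliferation genes also overlapped between the groups, no marker gene tested had an unadjusted P under 0.05, and none was at 0 in all muscles. The part of cell makeup in the values of single members was not tested.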

How the data were processed

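Total mRNA of 8 TA muscles was sequenced. Trimmed reads were mapped by the authors to the GRCm39 build in CLC Genomics Workbench 20.0.4, and 1 TPM value per gene and muscle was deposited, without pooling. The annotation and the handling of reads that match several genes are not given in the sources used here. TPM keep no read total, so depth is unknown. The number of muscles limits the precision.

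Values were taken as log2(TPM + 1). The 11530 genes that reached 1 TPM in 4 or more muscles were tested with limma 3.58.1 in R 4.3.3 (lmFit, eBayes with a trend, two-sided, Benjamini-Hochberg adjustment over all genes), without covariates. The study's Kruskal-Wallis test, whose smallest P with 4 against 4 is too large to pass the adjustment here, was an alternative. Log2 values of 11530 genes were also simulated, as independent normal draws around each gene's mean with the same spread in both groups. Of 200 genes changed by 0.5, 56.5% passed the adjusted p, and of 200 changed by 1, 93.0% did. Among the unchanged genes, 0 and 10 passed it. The simulation held no pairing of legs, no shift shared by a muscle and no unequal spread, so these shares may not hold for the muscles. Ratios and marker sums were compared by exact permutation tests (scipy 1.17.1, two-sided). Equal replicate numbers mark the legs of a mouse, from the titles. The deviations of partners from their group means correlated at −0.00037, 0.20, 0.58 and 0.54 across genes in replicates 1 to 4. Gene positions came from GENCODE M39, and promoter sequences from RefSeq. All columns were assigned to a sample.

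In each family, the named genes were the highest in mean TPM, the one with the smallest unadjusted P, the one with the largest absolute log2FC, every member with an unadjusted P under 0.05 and the pairs whose ratio had the smallest exact p. Members, gene lists and tests were chosen with earlier results of these data known. The alternatives were a pseudocount of 0.1, no filter, a mean of 5 TPM, median-ratio scaling, quantile normalization, TPM without mitochondrial transcripts, the replicate block (with and without median-ratio scaling) and leaving out each muscle.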

Additional observations from a re-analysis of the deposited data

Results flagged for a closer look

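In 46 groups of 4 muscles, made up of the 23 named members in each of the 2 groups, the highest or lowest muscle was compared with the rest of its group by Dixon's criterion, for which about 2.3 would be set apart by chance. It set apart 4 values. *Arid4a* was at 5.06 TPM with NT siRNAs in replicate 4, against 4.45 to 4.51 TPM in the other NT muscles. *Smarcc2* was at 19.7 TPM in the same muscle, against 21.6 to 21.9 TPM. *Smarcc2* was at 26.5 TPM with *Uba1* siRNAs in replicate 3, against 22.5 to 22.9 TPM in the other muscles of that group. *Kmt2c* was at 4.55 TPM with *Uba1* siRNAs in replicate 1, against 5.85 to 5.97 TPM.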

How the results depend on the processing

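No member passed the limma adjusted p in any of the 16 alternative limma fits. Depth is unknown, so a small difference of a low gene cannot be set against its counting error. The count of members higher at an unadjusted P under 0.05, 11 as reported, was 5 of 30 among genes with a mean of 5 TPM or more, which tests fewer genes, 2 with median-ratio scaling, 1 with quantile normalization and 3 with the replicate block and median-ratio scaling, where 15.8%, 4.43%, 4.45% and 6.96% of all genes were higher. It ranged from 5 to 14 of 52 when 1 muscle was left out, where 10.0 to 17.7% of all genes were higher. The count of members lower, 1 as reported, was 2, 2 and 3 under these last 3 settings, against 6.18%, 5.16% and 8.76% of all genes. It was 1 in each fit with 1 muscle left out, against 1.52 to 2.45% of all genes. The replicate block alone gave 14 higher and 1 lower, and changed no call of a member at the adjusted p. For *Uba1* it did, at an adjusted p of 0.0278. The median of the members relative to all genes was 0.069 with no filter and −0.0061 with a mean of 5 TPM or more. It ranged from −0.0022 to 0.053 with 1 muscle left out.

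Signs turned for 5 named members with a log2FC near 0, none of them past the threshold. With median-ratio scaling, with or without the replicate block, the log2FC was −0.061 for *Arid1a*, −0.041 for *Chd4*, −0.068 for *Kmt5a*, −0.11 for *Smarca4* and −0.090 for *Smarcd3*. With quantile normalization it was −0.055 for *Arid1a*, −0.021 for *Kmt5a*, −0.085 for *Smarca4* and −0.050 for *Smarcd3*. With 1 muscle left out, the lowest and highest log2FC were −0.0020 and 0.086 for *Arid1a*, 0.021 and 0.13 for *Chd4*, −0.0082 and 0.098 for *Kmt5a*, −0.060 and 0.059 for *Smarca4*, and −0.018 and 0.088 for *Smarcd3*. The log2 ratio of *Chd1* to *Chd2* differed by 0.00074 between groups with a pseudocount of 1. Median-ratio scaling took the median log2FC of all genes from 0.11 to 0.0016, and the 5 members lay below that 0.11 before it. The cause of the other shifts was not tested.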
